A study of Homo sapiens with 6 samples.

Results

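Gene deserts, taken here as the parts of chromosomes 1 to 22 that lie at least 500 kb from every protein-coding gene body, held 24965 distinct PAI-1 ChIP-seq peak intervals of 348662 in all. A peak was a member when its midpoint lay in such a stretch, with gene bodies from GENCODE 44 on GRCh37, the assembly that hg19 is built on. Plasminogen activator inhibitor-1 (PAI-1) was immunoprecipitated with the monoclonal antibody clone 3F2 from nuclear extracts of 2 cell lines, UM-UC-3 and RT112. Both are established human bladder cancer cell lines, and the labels give no treatment or engineered change for either. Each line had 2 ChIP libraries, labelled as biological replicates, and 1 input library, and the inputs were not analysed here. The lists gave intervals with a score and no read counts, so the depth behind each peak is unknown. RT112 had 6240 desert peaks in replicate 1 and 3769 in replicate 2. UM-UC-3 had 8488 and 8815. The deserts made up 293 stretches with 226.9 Mb outside assembly gaps, which was 8.45% of the 2685 Mb of these chromosomes outside gaps. Of these, 152 stretches held at least 500 kb outside gaps, with a median of 0.994 Mb.

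Gene deserts are long stretches without protein-coding genes. As a rule their DNA is rich in A and T, replicates late in S phase and lies in chromatin associated with the nuclear lamina, although some deserts hold distant enhancers of the developmental genes beside them. Many long non-coding RNA (lncRNA) genes lie inside them. PAI-1 is a secreted serpin that inhibits the tissue-type and urokinase-type plasminogen activators.

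The desert peaks that ranked best by mean score rank in each cell line, and those present in all 4 libraries, are shown first, because they are the highest-scoring entries that lie far from any protein-coding gene. The central 200 bp of each merged peak is printed from the GRCh37 reference, plus strand, in lower case. Capitals mark the longest run of purines alone or pyrimidines alone or, where there is one, a GGAAT repeat on either strand. The first 2 sequences come from RT112, ranked 1 and 3 there, and the next 2 from UM-UC-3, ranked 1 and 4. They are examples and not all of the best-ranked peaks. The longest run was 14 bp in the RT112 peak ranked 4 and 9 bp in the UM-UC-3 peak ranked 3, which was 54% purine.
chr16:64032369-64032568: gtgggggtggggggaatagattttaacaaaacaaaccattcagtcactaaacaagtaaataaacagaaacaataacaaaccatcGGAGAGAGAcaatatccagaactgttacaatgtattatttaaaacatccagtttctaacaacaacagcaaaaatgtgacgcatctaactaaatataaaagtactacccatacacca
chr10:9654042-9654241: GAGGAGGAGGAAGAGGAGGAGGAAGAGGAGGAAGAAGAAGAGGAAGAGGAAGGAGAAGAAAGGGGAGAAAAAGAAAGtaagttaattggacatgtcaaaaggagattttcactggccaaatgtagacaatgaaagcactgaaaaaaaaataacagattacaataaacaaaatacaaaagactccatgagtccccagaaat
chr21:28946236-28946435: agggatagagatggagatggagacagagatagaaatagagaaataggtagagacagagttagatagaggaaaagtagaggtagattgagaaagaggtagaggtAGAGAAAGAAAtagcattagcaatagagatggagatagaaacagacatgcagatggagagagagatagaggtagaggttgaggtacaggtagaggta
chr3:144556335-144556534: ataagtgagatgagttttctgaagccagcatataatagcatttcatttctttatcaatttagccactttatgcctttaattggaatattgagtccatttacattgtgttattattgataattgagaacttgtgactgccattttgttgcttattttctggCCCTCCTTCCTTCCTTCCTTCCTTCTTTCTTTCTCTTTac

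The best-ranked RT112 peak, at chr16:64032338-64032599, lay 945.2 kb from CDH11, which encodes a cadherin, in the desert between CDH8 and CDH11. Its score, the −log10 of a p or q value of the peak caller, was 75.2 in replicate 1 and 72.3 in replicate 2. No UM-UC-3 peak overlapped it. A further RT112 peak, at chr10:9653963-9654321, scored 56.6 and 44.9, lay 1186 kb from CELF2 and held an unbroken purine run of 77 bp. The best-ranked UM-UC-3 peak, at chr21:28946078-28946593, scored 66.3 and 77.6 and lay 606.9 kb from ADAMTS5, which encodes an extracellular protease. Purines made up 80.5% of its central 200 bp on the plus strand. The UM-UC-3 peak at chr3:144556197-144556672 scored 41.9 and 43.96 and held a pyrimidine run of 38 bp. Neither UM-UC-3 peak was overlapped by an RT112 peak. Over all desert peaks a purine share more than 20 percentage points from balance was uncommon. In RT112 0.769% and 1.03% of peaks had it, in UM-UC-3 0.542% and 0.601%, and it was found in 0.353% of all consecutive 300 bp desert windows.

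Of the 18412 merged desert loci, 123, or 0.668%, had a peak in all 4 libraries, and outside deserts 1922 loci, or 0.870%, did. The sequences of the best-ranked shared locus and of a shared locus with a GGAAT repeat follow as examples.
chr3:82705215-82705414: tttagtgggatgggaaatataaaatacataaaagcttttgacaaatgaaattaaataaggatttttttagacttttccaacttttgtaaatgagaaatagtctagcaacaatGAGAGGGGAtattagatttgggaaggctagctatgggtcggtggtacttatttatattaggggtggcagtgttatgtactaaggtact
chr21:10087763-10087962: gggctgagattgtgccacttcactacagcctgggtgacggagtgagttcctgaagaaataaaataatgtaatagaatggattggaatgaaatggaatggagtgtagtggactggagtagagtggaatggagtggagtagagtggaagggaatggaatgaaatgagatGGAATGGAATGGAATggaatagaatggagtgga

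The shared locus at chr3:82705030-82705600, 894.5 kb from GBE1, scored 13.04 and 20.5 in RT112 replicates 1 and 2 compared with 25.7 and 31.5 in those of UM-UC-3. The locus at chr21:10087557-10088168, 818.5 kb from TPTE, scored 26.7, 26.3, 11.4 and 14.5 in the same order of libraries, and lay 676.7 kb from an assembly gap of at least 1 Mb. A further GGAAT-bearing locus, chr1:142966689-142967414, 431.6 kb from such a gap, scored 57.1 and 43.9 in RT112 replicates 1 and 2 compared with 11.4 and 12.9 in those of UM-UC-3. GGAAT repeats of this kind are typical of satellite DNA. Within 2 Mb of gaps of at least 1 Mb lay 12 of the 123 shared loci, 9.76%, and 5.52% of the desert bases. For the desert peaks of single libraries this share was 5.72% to 6.21%. The shared locus at chr11:29254368-29254772 lay in an intron of the lncRNA gene ENSG00000254526 and scored 29.7, 31.3, 14.6 and 16.3. The locus at chr1:105032584-105033230, 731.6 kb from AMY1C, an amylase gene, scored 26.1, 22.3, 18.2 and 14.6. By chromosome, the 123 shared loci were most numerous on chromosome 5, with 15, and chromosome 2, with 13.

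Other best-ranked peaks of single lines were found in both replicates of that line, as the rule required. In RT112, chr1:30320127-30320578 scored 40.8 and 40.96, and chr16:64341527-64341883, within the lncRNA gene ENSG00000261028, scored 37.02 and 48.99. In UM-UC-3, the peak at chr2:82913353-82913663, 1737 kb from SUCLG1, scored 46.2 and 41.8, and that at chr11:90749188-90749476, 793.1 kb from CHORDC1, scored 39.2 and 42.8. None of these 4 peaks was overlapped by a peak of the other line.

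With the limit of 500 kb, peaks were less dense in deserts than in the rest of the same chromosomes in every library. The deserts held 27.5 and 16.6 peaks per Mb in RT112 replicates 1 and 2 compared with 37.4 and 38.8 in those of UM-UC-3. Outside deserts the densities were 34.3, 21.5, 38.9 and 40.6 peaks per Mb. The ratio of desert to other density was 0.802 and 0.773 in RT112, a mean of 0.788 ± 0.0202 (SD, n = 2), and 0.962 and 0.957 in UM-UC-3, a mean of 0.959 ± 0.00325 (SD, n = 2). Thus the shortfall was larger in RT112, and the replicates of each line lay close together. The geometric mean over the 4 libraries was 0.869, with a two-sided p = 0.125 in an exact permutation test over libraries, and 0.125 is the smallest p this paired design allows. With a limit of 250 kb it was 0.949 (two-sided p = 0.375, exact permutation test), and with 1 Mb it was 0.793. A p above 0.125 means that, at 250 kb, the 4 libraries did not all lie on the same side of 1. Benjamini-Hochberg adjustment over the 9 main exact permutation tests, alternatives not included, gave 0.225 for each p of 0.125 and 0.375 for each p of 0.333. As a description of the limit, the nearest peak inside it in RT112 replicate 1 lay 500.078 kb from a gene and scored 3.801, and the nearest outside, at 499.989 kb, also scored 3.801. In RT112 replicate 2 the nearest inside scored 18.8 and the nearest outside 2.97, and in UM-UC-3 the pairs scored 3.88 and 6.32 in replicate 1 and 6.57 and 4.97 in replicate 2.

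Beyond 100 kb from genes the density fell with distance. It was highest at 50 to 100 kb from a protein-coding gene, with 39.2 and 25.02 peaks per Mb in RT112 replicates 1 and 2 compared with 42.9 and 45.1 in those of UM-UC-3. At more than 1.5 Mb it was 21.6, 13.6, 34.02 and 35.8 peaks per Mb. Against the mean of the whole library, that farthest class stood at 0.641 and 0.647 in RT112 and at 0.877 and 0.885 in UM-UC-3. Within gene bodies the relative density was 0.957, 0.954, 0.953 and 0.955, so gene bodies were also below the library mean. At 0 to 10 kb from a gene it was lower still, at 0.903, 0.924, 0.899 and 0.911, and at 10 to 50 kb it was 1.11, 1.12, 1.08 and 1.08. In UM-UC-3 the class next to genes was thus about as sparse as deserts at 1 to 1.5 Mb, where the values were 0.890 and 0.907.

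**Figure D1:**
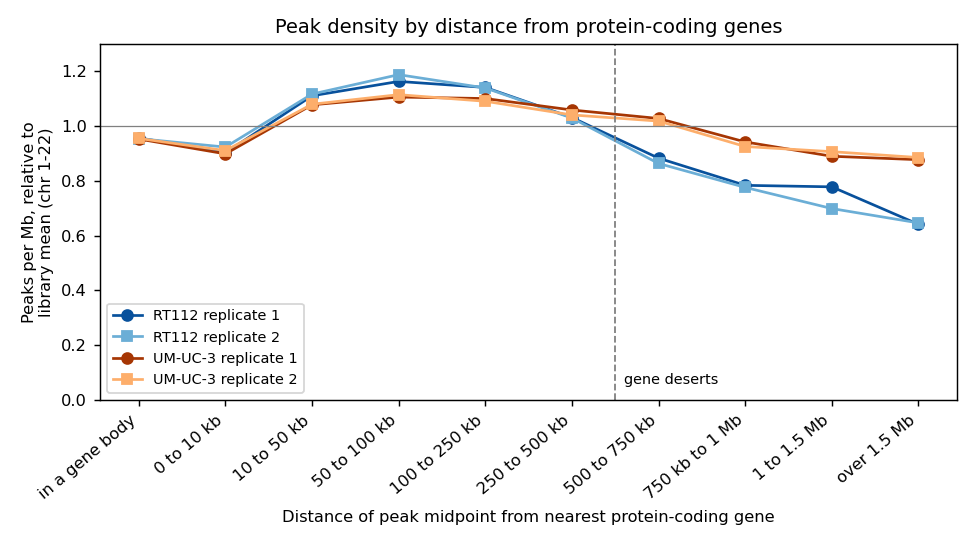
Peaks per Mb outside gaps, relative to the library mean, on the vertical axis against classes of distance from the nearest protein-coding gene, with a line for each of the 4 libraries. All lines peak at 50 to 100 kb, and the RT112 lines fall to 0.641 and 0.647 in the class over 1.5 Mb while those of UM-UC-3 stay at 0.877 and 0.885.

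The share of peaks in deserts was higher in UM-UC-3. It was 6.89% and 6.67% of the peaks on chromosomes 1 to 22 in RT112 replicates 1 and 2, compared with 8.15% and 8.12% in those of UM-UC-3. The means were 6.78% ± 0.162 and 8.14% ± 0.0253 (SD, n = 2 each), and the difference of 1.36 percentage points exceeded the spread of the replicates. An exact permutation test of 2 against 2 libraries cannot give a two-sided p below 0.333, which was the value obtained. The desert density itself averaged 22.1 ± 7.70 peaks per Mb in RT112 and 38.1 ± 1.02 in UM-UC-3 (SD, n = 2 each), a difference of 16.1 (two-sided p = 0.333, exact permutation test). That comparison includes the lower number of peaks in RT112 replicate 2 everywhere.

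The GC content of the surrounding DNA moved with these densities. The median GC of 10 kb windows was 35.7% in deserts and 40.3% elsewhere. In desert windows under 34% GC the densities were 17.2 and 10.1 peaks per Mb in RT112 replicates 1 and 2 compared with 32.8 and 33.8 in those of UM-UC-3. Outside deserts, windows of the same GC held 17.4, 10.1, 32.2 and 33.6. From 34% to 42% GC the ratio of desert to other density lay between 0.948 and 1.05 in all libraries. In windows over 42% GC, which made up 4.82% of the deserts, it was 1.24 and 1.27 in RT112 replicates 1 and 2 compared with 1.05 and 1.02 in those of UM-UC-3. When the rest of the genome was weighted to the regional GC of the deserts, the ratio was 1.02 and 1.03 in RT112 replicates 1 and 2 compared with 0.991 and 0.987 in those of UM-UC-3. The geometric mean of the 4 was 1.006 (two-sided p = 0.625, exact permutation test), so the lower density of deserts was not seen with GC classes weighted alike. The open class over 42% GC is included in that mean. This weighting was chosen after seeing the data.

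**Figure D2:**
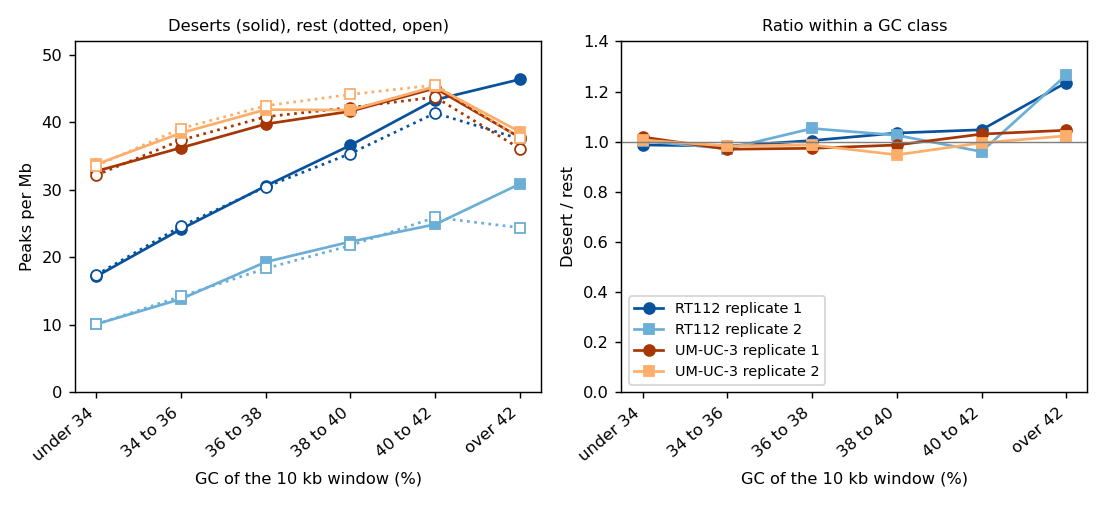
Left, peaks per Mb in 10 kb windows by GC class for deserts (solid lines, filled points) and the rest of chromosomes 1 to 22 (dotted lines, open points) in each library. Right, the ratio of desert to other density in each class, which lies near 1 except over 42% GC in RT112, where it reaches 1.24 and 1.27. That class has no upper limit of GC.

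The desert peaks themselves lay on DNA of higher GC than the deserts around them. The median GC of the 300 bp centred on a peak was 38.7% and 39.0% in RT112 and 36.3% in both UM-UC-3 libraries, against 35.3% for all 300 bp windows of the deserts. The mean difference was 2.25 percentage points, higher in 4 of 4 libraries (two-sided p = 0.125, exact permutation test). Windows under 30% GC were under-represented among peaks, at 0.318 and 0.230 times their share of desert DNA in RT112 replicates 1 and 2 compared with 0.623 and 0.593 times in those of UM-UC-3. Windows over 46% GC stood at 1.74 and 1.83 times in RT112 replicates 1 and 2 compared with 1.11 and 1.0998 times in those of UM-UC-3. Thus both ends of the GC range separated the cell lines. Peaks outside deserts had medians of 42.7% and 43.0% in RT112 and 40.7% in both UM-UC-3 libraries.

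Short sequence motifs were searched on both strands of the same 300 bp. The AP-1 motif TGACTCA, bound by Fos and Jun proteins, was found in 4.97% to 5.36% of desert peaks and 4.42% of desert windows. The E-box CACGTG, bound by basic helix-loop-helix proteins, was found in 1.86% to 2.23% against 1.85%. The GC box GGGCGG, bound by Sp1, was found in 1.45% to 1.70% against 1.58%. AT repeated 6 times was found in 0.0481% and 0.0796% of RT112 peaks, 0.141% and 0.227% of UM-UC-3 peaks and 0.993% of windows. TG repeated 6 times was found in 1.92% and 1.91% of RT112 peaks, 1.38% and 1.29% of UM-UC-3 peaks and 1.66% of windows. A run of 10 A was found in 5.29% to 6.48% of peaks and 7.06% of windows, so that the AT repeat and the A run were less common in the peaks of all 4 libraries than in desert DNA. GGAAT repeated 3 times was found in 0.0589% to 0.159% of peaks and 0.0497% of windows, and GA repeated 6 times in 0.669% to 0.849% against 0.634%. The CTCF core motif was found in 0 to 0.0707% of peaks and 0.0479% of windows, and TTAGGG repeated 2 times in 0 to 0.0160% against 0.00555%. In peaks outside deserts, AP-1 was found in 4.56% to 4.89% and the run of 10 A in 6.40% to 8.81%. The E-box was found there in 2.60% to 3.06% and the GC box in 2.72% to 2.90%.

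Chromosome by chromosome, the RT112 deserts were sparser than the rest on all chromosomes with much desert. On the 16 chromosomes with at least 5 Mb of desert, the desert density was below that of the rest of the same chromosome on 16 chromosomes in each RT112 library. In UM-UC-3 this held on 9 and 10 of them. The median ratio was 0.822 and 0.832 in RT112 replicates 1 and 2 compared with 0.952 and 0.960 in those of UM-UC-3. The lowest RT112 ratios, 0.733 and 0.683, were on chromosome 13, and the lowest of UM-UC-3, 0.794 and 0.791, were on chromosome 21. The mean of the 4 medians was 0.892 ± 0.0746 (SD, n = 4 libraries; two-sided p = 0.125, exact permutation test). With a limit of 250 kb in place of 500 kb that mean was 0.976 (two-sided p = 0.5, exact permutation test). Of these 16 chromosomes, the ratio was below 1 in all 4 libraries on 9 and above 1 in all 4 on 0. Among the 6 chromosomes with less than 5 Mb of desert, it was above 1 in all 4 libraries on chromosome 19 (1.29, 1.23, 1.83 and 1.89), which has 1.46 Mb of desert, and on chromosome 22 (1.57, 1.04, 1.60 and 1.56), which has 0.575 Mb. Against its own flanks of 2 Mb, the median desert stood at 0.832 and 0.836 in RT112 replicates 1 and 2 compared with 0.966 and 0.944 in those of UM-UC-3, and 54 of 152 deserts were below their flanks in all 4 libraries while 7 were above.

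**Figure D3:**
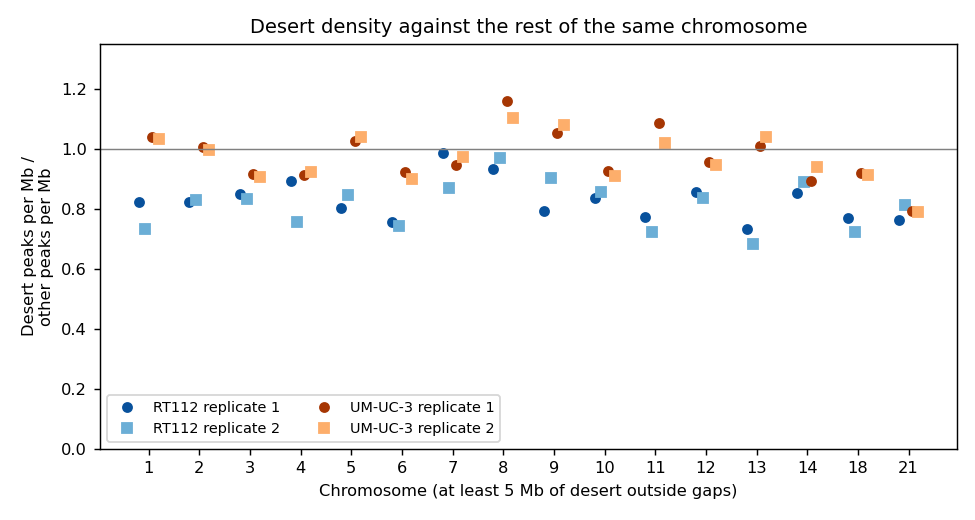
Desert density divided by the density in the rest of the same chromosome, for the 16 chromosomes with at least 5 Mb of desert and 4 libraries. All RT112 points lie below 1, from 0.683 to 0.985, while UM-UC-3 points lie on both sides of 1, from 0.791 to 1.16.

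Each of the 152 deserts held at least 1 peak in every library. Across them the density ran from 8.35 to 74.2 peaks per Mb in RT112 replicate 1 and from 1.39 to 50.1 in replicate 2. In UM-UC-3 it ran from 17.2 to 86.5 in replicate 1 and from 17.9 to 85.0 in replicate 2. Both UM-UC-3 libraries lay above both RT112 libraries in 116 deserts, and the reverse was found in 0, before any correction for the lower number of RT112 peaks. The same order held outside deserts, with 38.9 and 40.6 peaks per Mb in UM-UC-3 against 34.3 and 21.5 in RT112. No like count of stretches was made there, so the 116 cannot be called particular to deserts. The ratio of the means, UM-UC-3 over RT112, had a median of 1.78 and ran from 0.80 to 4.07.

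In UM-UC-3, 4 of the 5 densest deserts lay on the short arm of chromosome 5. A catenin or cadherin gene flanked each of these 4, but deserts beside listed cell adhesion genes, cadherins included, were not denser by median. Those 46 deserts had medians of 35.6 and 35.9 peaks per Mb in UM-UC-3, against 36.6 and 37.2 over all 152 deserts. The desert between CTNND2 and DNAH5, chr5:12404558-13190437, held 86.5 and 84.0 peaks per Mb in UM-UC-3 and 30.5 in both RT112 libraries. The desert between CDH9 and CDH6, chr5:27621257-30693793, which spans 3.07 Mb, held 80.1 and 84.6 in UM-UC-3 and 36.8 and 28.3 in RT112. The desert between H3Y1 and CDH18 held 83.4 and 77.3 against 35.6 and 22.1, and that between CDH10 and CDH9 held 72.0 and 85.0 against 29.1 and 20.2. In all 4 the libraries of the lines did not overlap, but these deserts were picked by their UM-UC-3 density. Both UM-UC-3 libraries lay above both RT112 libraries in 116 of all 152 deserts, with no correction for the lower number of RT112 peaks. The 2 Mb flanks were dense as well: beside the CTNND2 desert they held 90.2 and 93.0 peaks per Mb in UM-UC-3 and 53.8 and 33.2 in RT112, and beside the CDH9 to CDH6 desert 71.6 and 74.99 against 46.3 and 33.3. The other of the 5, between the adhesion receptor genes ADGRL4 and ADGRL2, chr1:80247809-81271832, held 66.4 and 81.1 in UM-UC-3 and 27.3 and 12.7 in RT112.

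**Figure D4:**
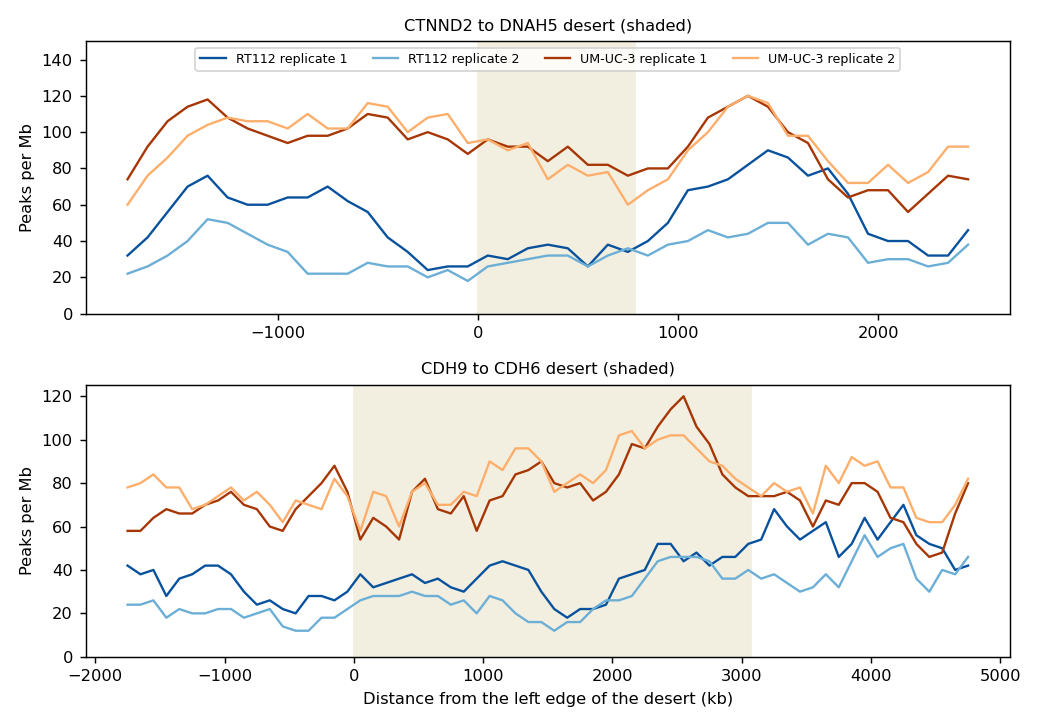
Peaks per Mb, as the running mean of 5 bins of 100 kb, against distance from the left edge of the desert for the CTNND2 to DNAH5 and CDH9 to CDH6 deserts (shaded) and their flanks. The UM-UC-3 lines lie above those of RT112 in the shaded deserts, which averaged 84.0 to 86.5 and 80.1 to 84.6 peaks per Mb in that line.

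The densest RT112 desert, between IRX1, a homeobox regulator of development, and ADAMTS16, chr5:4101517-4640443, held 74.2 and 50.1 peaks per Mb in RT112 replicates 1 and 2 compared with 64.9 and 57.5 in those of UM-UC-3. The libraries of the lines overlapped there. The desert between MYC, a growth-promoting transcription factor gene, and GSDMC held 59.7 and 48.7 in RT112 replicates 1 and 2 compared with 60.7 and 66.7 in those of UM-UC-3. The desert between KHDRBS3 and FAM135B, on the same chromosome, held 63.8 and 44.1 against 68.6 and 67.9. The desert between RNF144A and ID2, chr2:7708417-8318975, where ID2 encodes an inhibitor of helix-loop-helix transcription factors, held 62.2 and 36.03 in RT112 and 39.3 in both UM-UC-3 libraries. Its flanks held 36.3 and 20.5 peaks per Mb in RT112, so it had 1.72 and 1.76 times their density there, and 1.11 and 1.12 times in UM-UC-3. The desert between TYW1 and AUTS2 held 56.7, 30.2, 51.5 and 54.5 peaks per Mb in the order RT112 replicates 1 and 2, then UM-UC-3 replicates 1 and 2. Its RT112 density was 1.37 and 0.973 times that of its flanks. The IRX1 desert stood at 1.16 and 1.08 times its flanks in RT112, and the MYC desert at 0.884 and 1.25. The KHDRBS3 desert stood at 0.742 and 0.914 times, so its flanks were denser than the desert.

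The longest deserts were of ordinary or low density. The longest, between the protocadherin gene PCDH7 and ARAP2, chr4:31648427-35449843, with 3.78 Mb outside gaps, held 24.3, 14.0, 23.8 and 24.9 peaks per Mb in the same order of libraries. The desert between AGA and TENM3 held 15.1, 5.94, 24.9 and 29.99, and that between CELF4 and PIK3C3 held 28.6, 18.3, 26.0 and 28.6. By the mean of all 4 libraries, the sparsest were the desert between SPATA31A7 and FAM27E3 on chromosome 9, beside a large assembly gap, with 9.23, 4.10, 18.5 and 18.5, and the desert between AADAT and GALNTL6, with 16.7, 1.39, 22.2 and 20.8. In RT112 replicate 2 the latter rested on 1 peak.

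**Figure D5:**
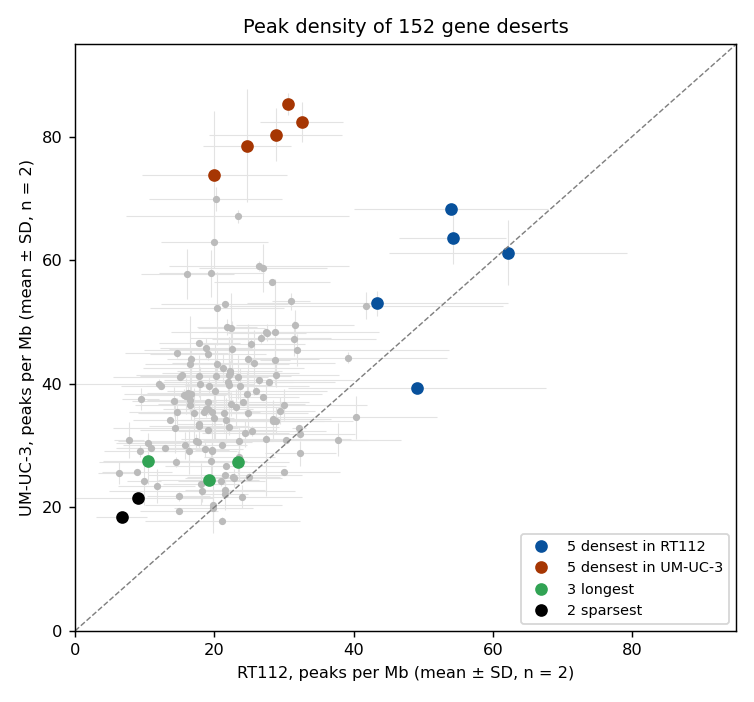
Mean density of each of 152 deserts in RT112 (horizontal axis) and UM-UC-3 (vertical axis), in peaks per Mb, with error bars for the SD of 2 libraries and a dashed line at equality. The 5 densest UM-UC-3 deserts lie at 73.7 to 85.3 on the vertical axis but at 20.02 to 32.5 on the horizontal, while the 5 densest RT112 deserts lie nearer to the line. Both sets were picked by the densities plotted here.

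Deserts beside listed developmental transcription regulators numbered 16, flanked by 15 such genes including SOX9, NR2F2 and ZEB2. Their median density was 31.2 and 20.5 peaks per Mb in RT112 replicates 1 and 2 compared with 32.4 and 37.4 in those of UM-UC-3, against 27.0, 16.01, 36.6 and 37.2 over all 152 deserts. Pooled over bases, the same deserts held 33.1 and 33.9 in UM-UC-3 against 36.8 and 38.2 for all deserts, so that in UM-UC-3 replicate 2 the median and the pooled value fell on opposite sides of those for all deserts. The 46 deserts beside cell adhesion genes had medians of 25.7, 14.9, 35.6 and 35.9 peaks per Mb, slightly below those of all deserts.

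To compare the lines with the number of peaks taken out, 1 Mb windows were scaled to the mean density of each library, and a window was called when both libraries of one line lay above both of the other with means at least 1.5 times apart. Of 230 desert windows, UM-UC-3 was higher in 70, or 30.4%, against a background of 16.1% over all windows of chromosomes 1 to 22. RT112 was higher in 20 desert windows, 8.70%, against a background of 12.7%. On chromosome 4 UM-UC-3 was higher in 18 of 30 desert windows and in 89 of all 188, and on chromosome 1 in 11 of 15 and 57 of 227. On chromosome 5 it was higher in 8 of 21 and 37 of 178, and on chromosome 13 in 8 of 19 and 16 of 96. Without chromosome 5, it was higher in 62 of 209 desert windows and in 398 of 2516 windows in all. With only peaks scoring at least 10, UM-UC-3 was higher in 33.5% of desert windows and 28.2% of all windows, so that the gap to the background was smaller. GC moved with these calls too: among windows under 36% GC, UM-UC-3 was higher in 38.5% of desert windows and 39.5% of other windows. At 36% to 38% GC the shares were 25.4% and 27.7%. Of the 13 desert windows at 40% GC and over, UM-UC-3 was higher in 0 and RT112 in 9, or 69.2%. Of the 1394 other windows in that class, UM-UC-3 was higher in 8.03% and RT112 in 16.8%. This class has no upper limit of GC, and a larger share of the other DNA than of the deserts lay over 42% GC. The windows compared there are thus not matched for GC. With only 13 desert windows as well, whether deserts differ from windows of like GC in that class was not tested.

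The median score of desert peaks equalled that of other peaks in each library: 3.801 and 4.09 in RT112 replicates 1 and 2 compared with 3.88 and 3.85 in those of UM-UC-3. The lower and upper quartiles were equal to every digit as well. Many peaks thus share a score, and equal medians say little. High scores were somewhat less common in deserts. A score of at least 10 was found in 8.69% and 7.96% of the RT112 desert peaks, against backgrounds of 10.1% and 8.75% of all peaks on chromosomes 1 to 22, and in 7.72% and 8.01% of those of UM-UC-3, against 9.17% and 9.2%. The median width of desert peaks was 288 and 261 bp in RT112 and 272 and 268 bp in UM-UC-3, close to the 294, 265, 274 and 270 bp of peaks outside deserts.

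The share of desert peaks that recurred between replicates lay a few points under that of other peaks. In RT112, 34.7% of the replicate 1 peaks and 57.6% of the replicate 2 peaks overlapped a peak of the other replicate by at least 1 bp, against backgrounds of 38.2% and 61.2%. In UM-UC-3 the values were 73.0% and 70.4%, against 74.8% and 71.8%. Compared with peaks outside deserts, the share was lower in 4 of 4 libraries, by a mean difference of -2.73 percentage points. Both values of a line count the same overlap from its 2 sides, with 2168 and 2171 desert peaks for RT112 and 6199 and 6205 for UM-UC-3, so they are 2 reciprocal pairs and no p is given. The share was higher at high scores: desert peaks with a score of at least 10 recurred in 79.5%, 82.3%, 95.6% and 92.2%, and those under 3 in 15.3%, 43.3%, 55.6% and 55.7%. Outside deserts, peaks with a score of at least 10 recurred in 81.6%, 84.9%, 94.6% and 91.8%, so at high scores the desert share was lower in both RT112 libraries and higher in both UM-UC-3 libraries.

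Few peaks were shared between the cell lines, in deserts as elsewhere. In RT112, 6.73% and 7.93% of desert peaks overlapped a peak of UM-UC-3, against backgrounds of 7.1% and 7.81%. In UM-UC-3, 4.87% and 4.70% overlapped a peak of RT112, against 5.97% and 5.89%. The mean difference from peaks outside deserts was -0.690 percentage points, lower in 3 of 4 libraries. These values too count the same overlaps from both sides, so no p is given. Among peaks scoring at least 10 it was 0.961, so its direction was not stable. Of the 18412 desert loci, 39.7% were found only in RT112, 57.4% only in UM-UC-3 and 2.81%, or 518 loci, in both lines. Of the 220939 loci outside deserts the shares were 44.1%, 52.7% and 3.28%.

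Deserts hold no protein-coding genes by definition, so lncRNA genes are described here. The deserts overlapped 905 lncRNA genes, which covered 28.2% of the desert bases. By library, 29.5% to 30.8% of the desert peaks lay in them, close to that share. Peaks hit 477 and 407 of them in RT112 and 535 in each UM-UC-3 library, 313 in all 4 libraries, and 258 in none. Length moved with this: the median was 161 kb for genes hit in all 4 libraries and 4.08 kb for genes hit in none. Per Mb, desert peaks were slightly denser in lncRNA genes, at 29.0 and 18.1 in RT112 replicates 1 and 2 compared with 39.9 and 40.6 in those of UM-UC-3, than in other desert DNA, at 26.9, 16.02, 36.4 and 38.1. The ratio was 1.08, 1.13, 1.09 and 1.07, with a geometric mean of 1.09, above 1 in 4 of 4 libraries (two-sided p = 0.125, exact permutation test). Of 121 microRNA genes and 76 small nuclear RNA genes with their midpoint in a desert, 0 held a peak in any library. Of 539 processed pseudogenes, 23 and 17 held one in RT112, and 33 and 31 did in UM-UC-3. These counts take no account of gene length, which moved with the hits among lncRNA genes, so they do not compare the gene classes.

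LINC02055, between KHDRBS3 and FAM135B, held the most desert peaks of any lncRNA gene: 64 and 43 in RT112 replicates 1 and 2 compared with 62 and 61 in those of UM-UC-3. CCDC26, beside GSDMC, held 32, 28, 37 and 41. LINC02109, chr5:28809438-29217222, within the CDH9 to CDH6 desert, was named for its UM-UC-3 count. It held 13 and 8 peaks in RT112 replicates 1 and 2 compared with 39 and 38 in those of UM-UC-3. LINC03000 held 26, 17, 34 and 35. ENSG00000286481 held 28, 15, 35 and 36, and ENSG00000251574 held 31, 12, 34 and 38. In CCDC26 and these last genes too, both UM-UC-3 counts were above both RT112 counts. The counts are not corrected for the lower number of RT112 peaks. Per 100 kb, LSP1P5 on chromosome 2 was the densest in RT112 among lncRNA genes with at least 50 kb in deserts, at 20.5 peaks on average, with 17 and 13 peaks against 7 and 10 in UM-UC-3. That gene lies in a desert beside a large assembly gap. LINC00603 reached 14.0 per 100 kb in UM-UC-3, with 8 and 6 peaks against 2 and 1 in RT112.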

How the data were processed

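PAI-1 ChIP-seq peak lists of 2 RT112 and 2 UM-UC-3 libraries were used, grouped by the sample labels. The authors mapped reads to hg19 with Bowtie 1.1.1, removed PCR duplicates with Picard and called peaks with MACS2 2.1.0.20140616. FastQC and Trimmomatic are also named in the submitters' processing notes. The deposited score is taken to be a −log10 p-value or q-value (which one is not stated). Whether replicates were pooled or an input served as control in calling is not given in the sources used here. The lists hold no counts, so depth is unknown and no counting intervals were computed.

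Identical intervals within a list were counted once (195, 78, 131 and 161 lines dropped in RT112 replicates 1 and 2 and UM-UC-3 replicates 1 and 2). Densities were divided by bases outside runs of N in GRCh37. GC content and motifs were read from that reference, which carries no soft mask, so the planned repeat share was not computed. Deserts with at least 500 kb outside gaps were described singly. Named were the 5 densest per cell line, the 3 longest and the 2 sparsest, the 5 best-ranked peaks per line and 5 loci in all 4 libraries, and lncRNA genes by number of peaks or peaks per 100 kb. A peak that this rule also named is not reported here. Comparisons used exact two-sided permutation tests over libraries, with adjustment over 9 tests. Those of sharing are not printed, since both sides of an overlap are not independent. With 2 libraries per line, the p-values can take only a few values and do not measure the spread between libraries. Tests over 4 libraries treat the 2 replicates of each line as separate units, although the density ratios of replicates lay close together. Alternatives changed the distance limit, score, gaps, overlap rule, identical lines and libraries. Regional GC weighting and flanks were added after seeing the data. The members and lists were chosen with earlier results of these data known. Scripts were tested on simulated data. Python 3.11.15, numpy 2.4.6, pandas 2.3.3, scipy 1.17.1 and matplotlib 3.10.9 were used.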

Additional observations from a re-analysis of the deposited data

Results flagged for a closer look

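On 6 of the 16 chromosomes with at least 5 Mb of desert, both RT112 libraries had a desert density below that of the rest of the chromosome while both UM-UC-3 libraries had one above it. The mean ratio of UM-UC-3 divided by that of RT112 was 1.34 on chromosome 1, 1.25 on chromosome 5, 1.19 on chromosome 8, 1.26 on chromosome 9, 1.41 on chromosome 11 and 1.45 on chromosome 13. Chromosomes 16, 17 and 20, with 4.55, 1.68 and 1.71 Mb of desert, showed the same pattern. The difference between the lines was not tested on any single chromosome.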

How the results depend on the processing

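Of 118 alternative values over 11 results, 111 kept their direction and side of the threshold or, for counts, stayed within 1.5 times the count, 2 changed direction and 5 moved. The score difference, 0 in the main setting, could not change direction by this rule. It was -0.291 among peaks scoring at least 10 and -0.309 among the 25% of highest score. Since the design allows no p below 0.125, keeping the side of the threshold says nothing about stability. Weighting the rest to the regional GC of the deserts turned the density ratio to 1.006, and peaks scoring at least 10 turned the difference in sharing between cell lines to 0.961. With a limit of 1 Mb in place of 500 kb, UM-UC-3 was higher in 21 of 67 desert windows (31.3%, against 16.1% of all windows) and RT112 in 4 (5.97% against 12.7%). RT112 was higher in 41 of 438 with a limit of 250 kb (9.36% against 12.7%), in 53 of 230 with scores of at least 10 (23.04% against 25.2%) and in 33 of 230 with the 25% of peaks of highest score (14.3% against 20.8%). UM-UC-3 was higher in 77 of 230 with scores of at least 10 (33.5% against 28.2%, a smaller gap than 30.4% against 16.1%). These counts rest on other numbers of windows or peaks by construction. The density difference between lines was 1.14 peaks per Mb among peaks scoring at least 10 and 3.65 among the 25% of highest score. For the GC difference scores of at least 10 gave 4.0 points, for replicate sharing they gave -0.832, and with a limit of 1 Mb the difference in desert share was 0.459 points. Leaving out 1 library at a time gave ranges of 0.840 to 0.904 for the density ratio, 0.869 to 0.915 within chromosomes, 10.6 to 21.5 for the density difference, 1.24 to 1.47 for the difference in desert share, -3.15 to -2.36 for replicate sharing, -0.965 to -0.487 for sharing between lines, 1.08 to 1.1001 for the lncRNA ratio, 1.78 to 2.67 for GC, 64 to 82 windows higher in UM-UC-3 and 17 to 24 higher in RT112. Nothing in the labels pairs equal replicate numbers across the lines: with the replicate block the differences stayed at 16.1 peaks per Mb and 1.36 points, with a smallest possible p of 0.5 in the exact permutation test. The repeat share was not run.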
